A study of Homo sapiens with 28 samples.

Results

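The comparison described here set non-apoptotic cells that overexpressed tropomyosin 2.1 (Tpm2.1), taken after 5 hours in suspension, against control cells carrying an empty vector (EV), taken after the same time. Both are MDA-MB-231, a human breast cancer line without oestrogen and progesterone receptors. The members were chosen by their labels and were 4 of the 28 libraries of the study, 2 in each group. The Tpm2.1 cells were held on ultra-low attachment plates for 5 hours and then passed over Annexin V MicroBeads, and the fraction labelled non-apoptotic was sequenced. The EV cells were held on the same kind of plate for 5 hours. No Annexin V step is stated for them, so the effect of the line and that of the separation cannot be told apart within these 4 libraries. Attached Tpm2.1 cells and attached EV cells, 2 libraries each, had spent 6 hours on tissue culture plates, with no separation stated, and gave the line difference without suspension. All cells grew in DMEM with serum, antibiotics and puromycin. The labels do not say whether either line is 1 clone or a pool, and the replicates of a group are named as biological with nothing said of separate cultures.

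Tropomyosins are rod-shaped dimers that bind head to tail along actin filaments and set which myosins and other proteins can reach the filament. Tpm2.1 is a long product of the TPM2 gene, sits mainly on stress fibres, and is often lost in transformed epithelial cells. Anoikis is the apoptosis that follows loss of attachment to the extracellular matrix, and cells that resist it can survive without a substrate. Annexin V binds phosphatidylserine, a lipid that cells expose on their surface early in apoptosis, so the non-apoptotic fraction is the part of the suspended culture that did not show this sign.

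The 4 libraries differed in more than the line. Counts in genes summed to 21200006 and 25481208 in the non-apoptotic Tpm2.1 libraries, against 15040042 and 14199713 in the EV libraries, within a range of 13043529 to 27416335 over all 28. Messenger RNA of the mitochondrial genome took 1.62% and 1.44% of counts in the non-apoptotic Tpm2.1 cells, against 3.18% and 3.10% in the EV cells. All 14 pairs of replicates differed beyond sampling noise, so none was treated as a single library. With 2 libraries a group, the p-values given below measure the spread between replicate libraries, which may be partly technical. The 2 apoptotic libraries at 4 days stood apart from all others and enter only the estimate of spread; without them 7543 genes passed at 5 hours. Of 12 markers of the MDA-MB-231 line 10 rose and none fell, and their summed level was 5110 and 5048 CPM (counts scaled to the library total) in the non-apoptotic Tpm2.1 libraries, against 3926 and 3888 CPM in the EV libraries. Over all genes tested at 5 hours 20.4% were higher and 20.4% lower, and no marker count was tested against these shares. Markers of other cells were measured too. The 12 listed luminal breast epithelial markers summed to 569 and 579 CPM in the non-apoptotic Tpm2.1 libraries and 419 and 446 CPM in EV. Most of this was KRT8 and KRT18, keratins of simple epithelia. Of the 10 tested 4 were higher and none lower. The oestrogen receptor gene ESR1 was at a mean of 0.782 CPM in the non-apoptotic Tpm2.1 libraries and 0.386 CPM in EV and did not pass, and PGR and CDH1 were below the filter on low counts. Of 10 endothelial markers 6 were tested, with 3 higher and 1 lower, while CDH5, TEK, CLDN5 and EMCN were below the filter. The 10 listed endothelial markers, tested or not, summed to 369.5 and 384 CPM in the non-apoptotic Tpm2.1 libraries and 159 and 169 CPM in EV. TIE1 alone had 96.9 and 105 CPM in the non-apoptotic Tpm2.1 libraries and 2.36 and 2.905 CPM in EV. The listed fibroblast markers summed to 61.8 and 60.7 CPM in the non-apoptotic Tpm2.1 libraries and 109 and 115 CPM in EV. Of 6 tested 3 were lower and none higher. The listed leukocyte markers summed to 2.47 and 2.39 CPM in the non-apoptotic Tpm2.1 libraries and 3.84 and 4.49 CPM in EV. Of 10 listed only 3 were tested, with 1 lower and none higher, and PTPRC and CD3E were below the filter.

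The line difference at 5 hours was broad. Of 17191 genes tested with edgeR's quasi-likelihood test, 7024 passed at a Benjamini-Hochberg adjusted p of 0.05, which is 40.9%. They were 3510 genes higher in the non-apoptotic Tpm2.1 cells (20.4%) and 3514 lower (20.4%). Among the 13343 protein-coding genes tested 3286 were higher and 3004 lower. The counts of gene lists at 5 hours given below stand beside these shares, and no list was tested against them. Most of these changes were small. A change past 2-fold was found for 1156 genes (6.72%), of which 515 were higher (3%) and 641 lower (3.73%). With the GC correction described below 538 were higher and 448 lower, and with protein-coding genes alone 402 and 382. The median log2 difference over all 17191 genes tested was -0.019. In attached cells the same contrast passed for 3516 genes (20.5%), of which 1788 were higher (10.4%) and 1728 lower (10.1%). Past 2-fold there were 465 (2.7%), with 393 higher (2.29%) and 72 lower (0.419%). The difference between the line difference at 5 hours and that in attached cells, tested as an interaction, passed for 4955 genes (28.8%), 2585 with a positive value (15%) and 2370 with a negative one (13.8%). The groups did not overlap in CPM for 12431 genes (72.3%) at 5 hours, so separate groups of 2 were the usual case and say little of a single gene.

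The calls at 5 hours and in attached cells overlapped in part. Both tests passed for 2144 genes, 30.5% of the genes called at 5 hours and 61% of those called in attached cells. Of the 4880 genes called at 5 hours alone, 2918 also passed the interaction. The attached count depended on the fit, with 5440 genes called from its own 4 libraries and 2028 to 2188 when 1 of them was left out. Of the 2144 genes that passed both tests, 1573 had the same direction and 571 the opposite one. The larger changes were shared unequally by direction, between sets that differed in gene class. Protein-coding genes made up 403 of the 515 higher and 356 of the 641 lower genes past 2-fold at 5 hours. What part gene class has in the shares was not tested. Of the 515 genes more than 2-fold higher at 5 hours, 286 (55.5%) also passed as higher in attached cells, whereas of the 641 more than 2-fold lower, 77 (12%) passed as lower there and 35 as higher. Over all genes tested in attached cells 10.4% were higher and 10.1% lower, so the share for the lower genes is near the background. These 2 contrasts share no library. Across all 17191 genes the 2 differences had a Pearson r of 0.362 and a Spearman rho of 0.174, as a description over genes that are not independent replicates.

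**Figure D1:**
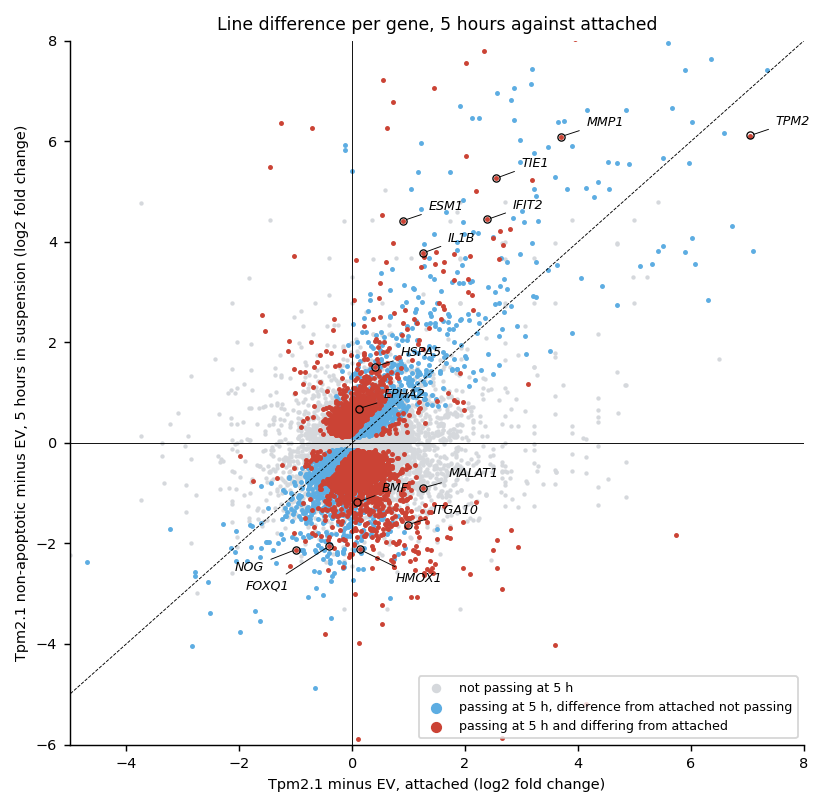
Log2 line difference of each tested gene in attached cells (horizontal axis) against that at 5 hours in suspension (vertical axis, non-apoptotic Tpm2.1 over EV). Points are genes and 8 genes lie outside the axes. TPM2 and MMP1 stand at the upper right with values of 6.12 and 6.09 at 5 hours, and the spread is wider along the vertical axis, where 1156 genes passed 2-fold against 465 in attached cells.

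TPM2 itself checked the labels. The gene (ENSG00000198467, chromosome 9, 35681992 to 35690121, minus strand, with coordinates here and below in hg38 as deposited) had 2543 and 2570.0 CPM in the non-apoptotic Tpm2.1 libraries, against 34.4 and 39.5 CPM in the EV libraries. Every library of the overexpressing line lay far above every EV library, with a log2 difference of 6.12 ± 0.095 (SE, here and below; adjusted p = 1.05e-35). Each amount given below for a gene that rose, fell or differed, and each median of a list, is such a log2 difference, of non-apoptotic Tpm2.1 over EV cells at 5 hours unless another contrast is named. In attached cells TPM2 had 3242 and 3361 CPM in the Tpm2.1 line, against 27.2 and 22.6 CPM in EV, a log2 difference of 7.05. The difference was thus smaller by 0.94 on the log2 scale in suspension, and the interaction passed. A gene count adds up every product of TPM2, the introduced one included, so the Tpm2.1 isoform has no value of its own. On the deposited FPKM scale, which corrects for gene length, TPM2 stood at 782 and 792 FPKM in the non-apoptotic Tpm2.1 cells, against 10.5 and 12.02 FPKM in EV cells.

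The other tropomyosin genes moved little beside TPM2. TPM4, whose product is expressed in most motile cells, stood at 121.5 and 118.2 FPKM in the non-apoptotic Tpm2.1 cells, against 80.8 and 78.3 FPKM in EV cells, and rose by 0.58 ± 0.049 on the log2 scale (adjusted p = 3.3e-12). TPM3 rose by 0.40. TPM1, the gene of the other long fibre-bound isoforms, had 76.7 and 74.7 CPM in the non-apoptotic Tpm2.1 libraries and 77.5 and 77.96 CPM in EV, a difference of -0.039 that did not pass (adjusted p = 0.645). In attached cells TPM1 was the one that fell, by 0.37 on the log2 scale, while TPM4 and TPM3 had values of 0.076 and 0.008 there. Among 34 tested genes of the actin cytoskeleton and focal adhesions, 20 rose and 5 fell at 5 hours with a median of 0.232, against 9 higher and 7 lower in attached cells; without EV replicate 2 at 5 hours 3 fell, and 1 with a correction for GC content described below. LIMA1, an actin cross-linker also known as EPLIN, had 165 and 147 CPM in the non-apoptotic Tpm2.1 libraries and 76.9 and 74.5 CPM in EV, and rose by 1.04 ± 0.067. Its attached difference was -0.13. VCL, the focal adhesion protein vinculin, rose by 0.47.

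A secreted protease differed almost as much as TPM2. MMP1, the interstitial collagenase that cuts fibrillar collagen (ENSG00000196611, chromosome 11, 102789920 to 102798160, minus strand), had 5453 and 5361 CPM in the non-apoptotic Tpm2.1 libraries, against 76.6 and 81.9 CPM in the EV libraries. Both Tpm2.1 libraries stood far above either EV library, a log2 difference of 6.09 ± 0.088 (adjusted p = 1.65e-36). Attached Tpm2.1 cells had 1694 and 1673 CPM, against 124 and 135 CPM in attached EV cells, so the line differed by 3.699 on the log2 scale in attached cells, and the gap was wider by 2.39 ± 0.10 at 5 hours. MMP3, a stromelysin that also activates other MMPs, had 48.8 and 49.4 CPM in the non-apoptotic Tpm2.1 cells and 3.91 and 3.301 CPM in EV, and rose by 3.76. MMP9, a gelatinase, rose by 2.998 and MMP13, another collagenase, by 1.89. Only 12 of the 16 listed MMP and TIMP genes were tested. Of these, 7 rose and 1 fell with a median of 0.748, and the one that fell was MMP15, a membrane-bound protease, at -1.199.

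Most genes of the plasminogen system rose. Urokinase and its partners turn plasminogen into plasmin, which digests matrix and activates MMPs. Of the 12 genes on this list 10 rose and 1 fell, with a median of 0.703, against 4 and 2 in attached cells. PLAU, which encodes urokinase, had 194 and 191 CPM in the non-apoptotic Tpm2.1 libraries and 61.8 and 59.5 CPM in EV, with no overlap, and rose by 1.67 ± 0.066 (adjusted p = 8.49e-22). Attached cells showed a difference of 0.22 for it, and the interaction passed at 1.45. SERPINB2, the type 2 inhibitor of urokinase, had 21.5 and 21.5 CPM in the non-apoptotic Tpm2.1 cells and 1.49 and 1.58 CPM in EV, a difference of 3.802. PLAUR, the urokinase receptor, rose by 0.92, and THBD, the thrombin-binding thrombomodulin, by 1.08. F3, tissue factor, was the member that fell, at -0.25.

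Interferon-stimulated genes rose in most members. They carry the antiviral response of a cell, and many of them are also switched on by its own nucleic acids. Of the 34 listed genes, all tested, 28 rose and 1 fell, 18 of them by more than 2-fold, with a median of 1.02. In attached cells 20 rose and 1 fell with a median of 0.802. IFIT1, which binds RNA that lacks the host cap, had 283 and 279 CPM in the non-apoptotic Tpm2.1 libraries, against 14.7 and 15.4 CPM in EV. The log2 difference was 4.22 ± 0.12 (adjusted p = 8.3e-27), beside 2.62 in attached cells. IFIT2 and IFIT3, its neighbours and partners, rose by 4.45 and 2.78.

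The promoters of IFIT1, IFIT3 and ISG15, a ubiquitin-like modifier, are shown because all 3 genes rose and all 3 windows hold the interferon-stimulated response element (ISRE), searched on both strands as GAAA, any 2 bases and GAAA again. Each runs from 250 bases before to 50 bases after the RefSeq start, 5′ to 3′ on the gene's plus strand in GRCh38.p14, and capitals mark the element or its reverse complement. The windows are chr10:89392373-89392672 for IFIT1, chr10:89327747-89328046 for IFIT3 and chr1:1013247-1013546 for ISG15.
IFIT1: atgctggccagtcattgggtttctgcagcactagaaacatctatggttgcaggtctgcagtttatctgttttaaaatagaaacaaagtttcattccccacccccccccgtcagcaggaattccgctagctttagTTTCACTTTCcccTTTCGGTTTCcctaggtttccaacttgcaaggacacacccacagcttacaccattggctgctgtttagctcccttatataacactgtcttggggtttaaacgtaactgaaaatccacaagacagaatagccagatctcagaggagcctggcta
IFIT3: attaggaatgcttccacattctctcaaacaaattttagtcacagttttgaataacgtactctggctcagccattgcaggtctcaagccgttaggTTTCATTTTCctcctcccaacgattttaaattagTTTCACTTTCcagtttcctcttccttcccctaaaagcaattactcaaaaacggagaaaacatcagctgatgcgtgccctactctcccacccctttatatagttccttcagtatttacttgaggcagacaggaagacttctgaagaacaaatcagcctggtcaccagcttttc
ISG15: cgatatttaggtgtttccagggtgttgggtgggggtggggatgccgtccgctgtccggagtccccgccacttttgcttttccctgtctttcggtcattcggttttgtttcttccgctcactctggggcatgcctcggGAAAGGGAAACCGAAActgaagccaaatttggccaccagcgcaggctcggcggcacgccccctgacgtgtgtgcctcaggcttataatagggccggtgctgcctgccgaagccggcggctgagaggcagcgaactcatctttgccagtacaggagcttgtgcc
The element was found in 17 of the 26 promoters of listed interferon-stimulated genes that the table holds (65.4%), beside 349 of 11759 promoters of tested genes (2.97%) and 1255 of all 35116 (3.57%). Among genes more than 2-fold higher at 5 hours it was in 31 of 319 promoters (9.72%), and among those more than 2-fold lower in 8 of 321 (2.49%). BST2, the list member that fell, held 2 matches. IFIT5, IFI6 and HERC5 held 3 each, with log2 differences of 0.28, 0.43 and 1.32. A match is a description of the letters, and binding was not measured.

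OASL, a relative of the oligoadenylate synthetases, had 105 and 97.4 CPM in the non-apoptotic Tpm2.1 libraries and 7.82 and 7.53 CPM in EV, and rose by 3.72 ± 0.099. IFIH1, the RNA sensor MDA5, counted below with the sensors, had 45.8 and 46.4 CPM in non-apoptotic Tpm2.1 cells and 6.45 and 5.54 CPM in EV and rose by 2.94, beside 2.12 in attached cells. ISG15 rose by 1.97 and MX1, an antiviral GTPase, by 0.69. RSAD2, the antiviral enzyme viperin, had 331 and 415 counts in the non-apoptotic Tpm2.1 libraries, against 0 and 1 counts in EV, a ratio of 492 with a counting interval of 88.1 to 1.95e+04. CH25H, an interferon-induced enzyme that makes an oxysterol and stands on none of the lists, had 214 and 275 counts in non-apoptotic Tpm2.1 cells and 1 and 0 counts in EV, a ratio of 323 with an interval of 57.6 to 1.28e+04. BST2, the virus tether tetherin, was the member of the interferon-stimulated list that fell, at -0.45.

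The sensors and signalling genes upstream were mixed, with 10 of 22 tested members higher and 5 lower and a median of 0.16; 3 fell without EV replicate 1 at 5 hours. MAVS, the mitochondrial adaptor of the RNA sensors, fell by 0.47 on the log2 scale at 5 hours but was higher by 0.28 in attached cells, and the interaction passed at -0.75. TYK2, a kinase of the interferon receptor, fell by 0.66 on the log2 scale. The ligands were scarce. IFNL1, a type III interferon, had 23 and 35 counts in the non-apoptotic Tpm2.1 libraries and 0 in both EV libraries, at least 12.8-fold higher when EV is set at a floor of 3 counts over the group. It was named after its values were seen. IFNB1 was below the filter and not tested. MHC class I and antigen processing genes gave 9 higher and 1 lower of 19, and 0 higher and 2 lower in attached cells. B2M, the light chain of MHC class I, rose by 0.62, with a difference of 0.67 from attached cells.

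**Figure D2:**
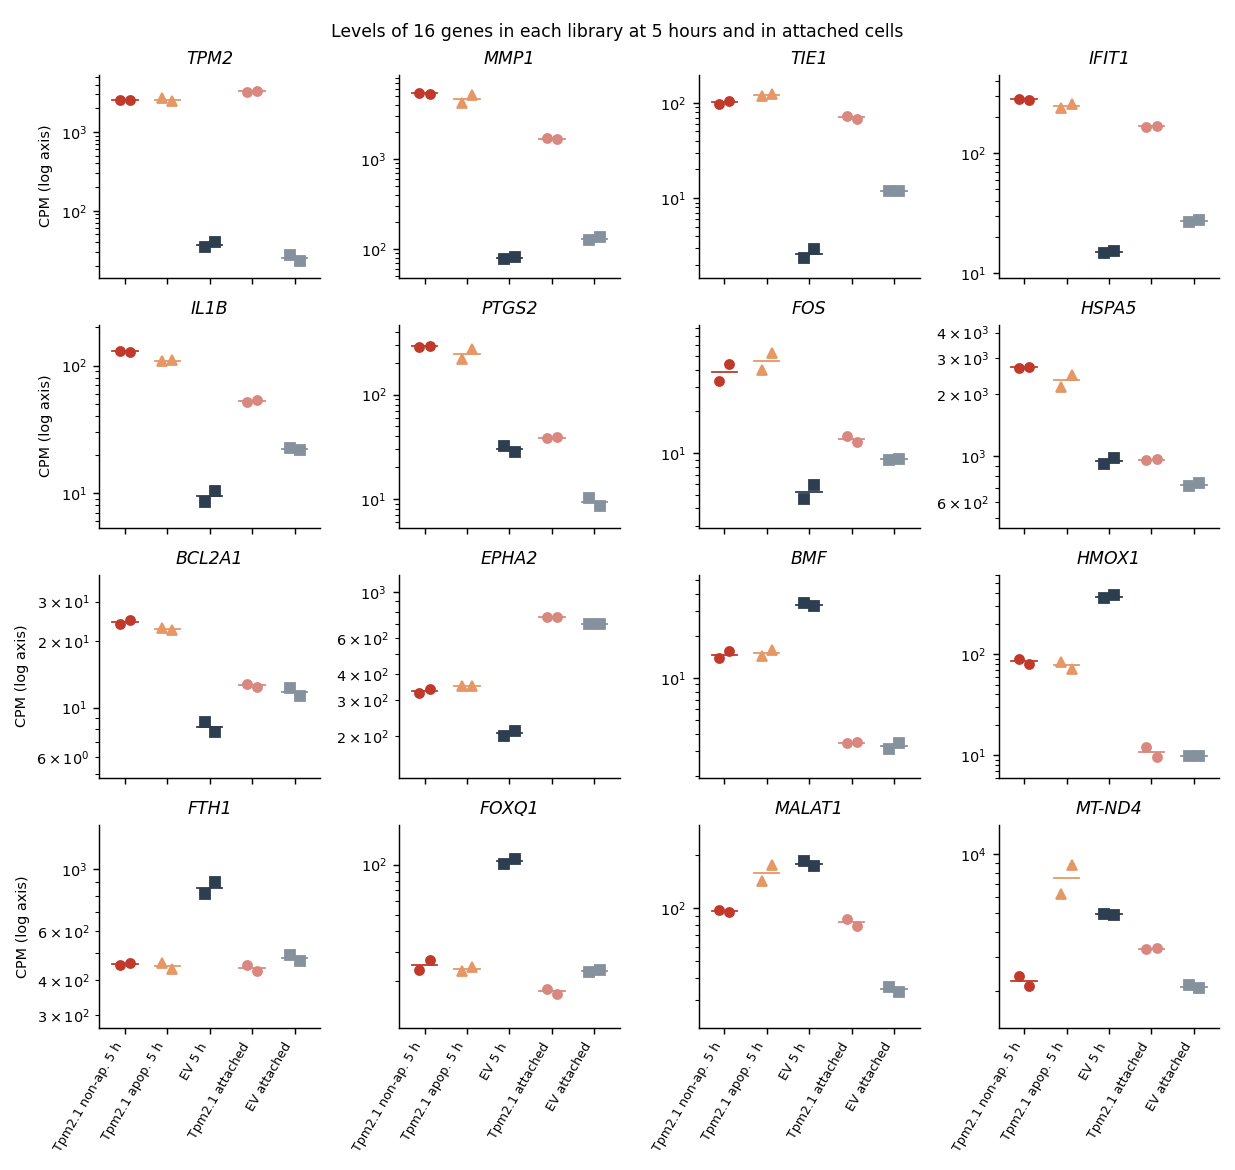
CPM on a log axis for 16 genes, 1 panel each. Points are libraries and lines are group means for non-apoptotic Tpm2.1, apoptotic Tpm2.1 and EV cells at 5 hours and for attached Tpm2.1 and EV cells. For IFIT1 the non-apoptotic Tpm2.1 libraries stand at 283 and 279 CPM, above the EV libraries at 14.7 and 15.4 CPM, and for HMOX1 they stand at 90.5 and 80.4 CPM, below the EV libraries at 360.0 and 382 CPM.

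Cytokines, chemokines and inflammatory enzymes had the highest median of the 40 lists. Of 30 listed genes 25 were tested, 20 rose and 3 fell, 17 and 2 of them past 2-fold. The median was 2.46, or 2.33 with the 4 members at 0 in EV set to their bound, and in attached cells 13 rose and 1 fell with a median of 0.374. IL1B, which encodes interleukin-1 beta, had 131 and 128 CPM in the non-apoptotic Tpm2.1 libraries, against 8.56 and 10.4 CPM in EV. The difference of 3.77 ± 0.11 (adjusted p = 1.54e-26) compared with 1.25 in attached cells, where the Tpm2.1 line had 51.6 and 54.02 CPM and EV 22.6 and 21.9 CPM. CXCL8, the neutrophil chemokine interleukin-8, had 90.9 and 82.8 CPM in the non-apoptotic Tpm2.1 cells and 8.502 and 6.73 CPM in EV and rose by 3.504. PTGS2, the inducible cyclooxygenase COX-2, had 286 and 293 CPM in the non-apoptotic Tpm2.1 cells and 32.5 and 27.9 CPM in EV and rose by 3.26 ± 0.12 (adjusted p = 2.86e-22). IL6 rose by 3.697 and CXCL1 by 3.599, both ligands made downstream of NF-kB.

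The list also held genes that fell. CCL2, the monocyte chemokine, fell by 2.66 on the log2 scale at 5 hours and by 2.78 in attached cells. CSF1, the macrophage growth factor, fell by 0.92 on the log2 scale, with 0.007 in attached cells. Among the rarest, CXCL10 and CXCL11, chemokines induced by interferon, were named after their values were seen. CXCL10 had 119 and 149 counts in the non-apoptotic Tpm2.1 libraries and 0 in both EV libraries, at least 58.9-fold higher against the same floor of 3 counts. CXCL11 had 54 and 100 counts in the non-apoptotic Tpm2.1 libraries and 0 in both EV libraries, at least 33.9-fold higher.

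NF-kB, a dimeric transcription factor, drives many of these genes and also its own inhibitors. Of 20 NF-kB subunits and feedback genes 12 rose and 1 fell with a median of 0.537, and 11 rose and none fell in attached cells. TNFAIP3, the deubiquitinase A20 that limits the pathway, had 60.3 and 62.02 CPM in the non-apoptotic Tpm2.1 libraries and 15.8 and 17.6 CPM in EV, and rose by 1.88. BIRC3, an inhibitor of apoptosis that ubiquitinates pathway members, had 76.2 and 74.4 CPM in non-apoptotic Tpm2.1 cells and 11.1 and 7.59 CPM in EV and rose by 3.01. ICAM1, an adhesion molecule for leukocytes, had 50.5 and 50.1 CPM in non-apoptotic Tpm2.1 cells and 13.2 and 11.4 CPM in EV and rose by 2.03, with 0.40 in attached cells. The subunit genes NFKB2 and RELB rose by 1.00 and 1.32, while RELA and REL had values of -0.053 and -0.050 that did not pass.

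The CXCL8 promoter (chr4:73740319-73740618, plus strand, GRCh38.p14) is shown for the AP-1 element, searched as TGANTCA on both strands and marked in capitals.
CXCL8: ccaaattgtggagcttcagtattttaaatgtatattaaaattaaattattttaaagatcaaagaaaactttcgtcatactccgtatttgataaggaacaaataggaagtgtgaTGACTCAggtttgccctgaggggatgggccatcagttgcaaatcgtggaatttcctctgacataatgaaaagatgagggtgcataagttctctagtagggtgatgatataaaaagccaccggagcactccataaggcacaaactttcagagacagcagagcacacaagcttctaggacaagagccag
That element was in 5 of 20 promoters of listed cytokine genes (25%), beside 576 of 11759 tested (4.9%) and 2707 of all 35116 (7.71%). It was in 35 of 319 promoters of genes more than 2-fold higher (11%) and in 20 of 321 of those more than 2-fold lower (6.23%).

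Immediate early genes, which respond to growth factors within minutes, rose in part. Of 11 AP-1 genes 6 rose and 1 fell with a median of 0.382, and of 23 EGR, KLF and related genes 12 rose and 1 fell with a median of 0.441. FOS had 33.1 and 44.1 CPM in the non-apoptotic Tpm2.1 libraries, against 4.65 and 5.88 CPM in EV, and the groups did not overlap. It rose by 2.88 ± 0.18 (adjusted p = 5.68e-16), with 0.48 in attached cells. EGR1, a zinc finger factor, had 55.5 and 53.03 CPM in non-apoptotic Tpm2.1 cells and 16.8 and 17.7 CPM in EV and rose by 1.65. JUN had a value of -0.086 that did not pass, and JUND fell by 0.67 on the log2 scale. With the GC correction described below 8 of the AP-1 genes rose and 0 fell, so the fall of JUND did not pass there. HBEGF, a ligand of the EGF receptor, had 65.2 and 62.9 CPM in the non-apoptotic Tpm2.1 cells and 19.5 and 23.4 CPM in EV and rose by 1.58. AREG, another ligand, rose by 1.71 and EGFR itself by 0.63, whereas ERBB2 fell by 0.65 on the log2 scale. Of 15 feedback regulators of ERK, the kinase below this receptor, 8 rose and 2 fell with a median of 0.277.

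SRF with its cofactor MRTF, and YAP with TAZ, are transcriptional regulators that respond to the actin cytoskeleton. Of 20 SRF and MRTF target genes 15 rose and 1 fell with a median of 0.5, against 5 and 2 in attached cells. Of 23 YAP and TAZ target genes 11 rose and 5 fell with a median of 0.285, against 5 and 6 in attached cells. CYR61 and CTGF, matricellular targets of both pathways, rose by 0.55 and 0.45, and had -0.020 and -0.088 in attached cells. ANKRD1 rose by 0.64. Some genes stand on several lists: FOS, EGR1 and MCL1 are also on the SRF list.

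The unfolded protein response of the endoplasmic reticulum, which raises chaperones when folding in that compartment is strained, rose in most of its genes. Of 17 listed genes 15 rose and none fell, with a median of 0.694, against 7 higher and none lower with a median of 0.107 in attached cells. HSPA5, the main chaperone BiP, had 2686 and 2736 CPM in the non-apoptotic Tpm2.1 libraries, against 916 and 977 CPM in EV, a rise of 1.52 ± 0.068 (adjusted p = 3.58e-20). HERPUD1, which helps remove misfolded proteins, had 319.7 and 316 CPM in non-apoptotic Tpm2.1 cells and 70.5 and 72.3 CPM in EV and rose by 2.15 ± 0.064 (adjusted p = 4.4e-26). XBP1, a transcription factor of the response, rose by 0.69, DNAJB9, a BiP cochaperone, by 0.93, and HSP90B1 by 0.79. The summed level of the list was 6874 and 6897 CPM in the non-apoptotic Tpm2.1 libraries, against 3444 and 3483 CPM in EV, and 3239 and 3235 CPM in attached Tpm2.1 cells against 2926 and 2951 CPM in attached EV cells.

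The HSPA5 promoter (chr9:125241294-125241593, minus strand, GRCh38.p14, written 5′ to 3′ along the gene) is shown with the ER stress response element (ERSE), searched on both strands as CCAAT, any 9 bases and CCACG, in capitals.
HSPA5: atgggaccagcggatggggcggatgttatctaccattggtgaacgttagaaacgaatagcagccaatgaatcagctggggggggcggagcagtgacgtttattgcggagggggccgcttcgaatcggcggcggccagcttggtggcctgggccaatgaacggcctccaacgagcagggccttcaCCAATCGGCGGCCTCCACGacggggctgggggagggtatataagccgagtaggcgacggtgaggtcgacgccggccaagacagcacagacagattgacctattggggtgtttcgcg
This element was in 4 of 17 promoters of the list (23.5%), beside 14 of 11759 promoters of tested genes (0.119%) and 27 of all 35116 (0.0769%).

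Chaperones of the cytosol and the amino acid branch of the stress response moved the same way in most members. Of 15 tested heat shock genes 13 rose and 1 fell with a median of 0.559. DNAJB1, a cochaperone of HSP70, had 1080.0 and 1026 CPM in the non-apoptotic Tpm2.1 libraries and 309 and 297 CPM in EV and rose by 1.796, with 0.43 in attached cells. HSPA1A and HSPA1B, the inducible HSP70 genes, rose by 2.05 and 1.497; they are near-identical, so the split of reads between them is uncertain. BAG3, a partner of HSP70 in protein quality control, rose by 0.95 and HSP90AA1 by 0.68. Of 22 ATF4 target genes 12 rose and 3 fell with a median of 0.334. CHAC1, which degrades glutathione, had 13.3 and 13.3 CPM in the non-apoptotic Tpm2.1 cells and 2.42 and 3.96 CPM in EV and rose by 2.07. ATF3 rose by 2.003, DDIT3, also called CHOP, by 1.44, and ATF4 itself by 0.93. SLC7A11, the cystine transporter, fell by 0.35 on the log2 scale.

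Regulators of apoptosis changed on both sides. BMF, a BH3-only protein that is held by the cytoskeleton and released when attachment is lost (ENSG00000104081, chromosome 15, 40087890 to 40108892, minus strand), had 13.8 and 15.6 CPM in the non-apoptotic Tpm2.1 libraries, against 34.3 and 32.6 CPM in EV. It fell by 1.18 ± 0.092 on the log2 scale (adjusted p = 2.97e-13). In attached cells BMF was low in both lines, at 3.403 and 3.498 CPM in the Tpm2.1 line and 3.099 and 3.41 CPM in EV, a difference of 0.083 that did not pass, and the interaction passed at -1.27 ± 0.18. BCL2L11, which encodes BIM, fell by 0.64 on the log2 scale. PMAIP1, or NOXA, had 94.8 and 90.7 CPM in the non-apoptotic Tpm2.1 cells and 40.1 and 35.2 CPM in EV and rose by 1.297, and BBC3, or PUMA, rose by 0.86. Altogether 5 of 12 tested pro-apoptotic BCL2 family genes rose and 4 fell, where 20.4% of all tested genes rose and 20.4% fell.

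On the protective side, BCL2A1 had 23.9 and 24.8 CPM in the non-apoptotic Tpm2.1 libraries and 8.63 and 7.72 CPM in EV and rose by 1.57 ± 0.11 (adjusted p = 4.47e-14). Its attached difference of 0.10 did not pass. MCL1, a short-lived BCL2 relative, had 493 and 472 CPM in non-apoptotic Tpm2.1 cells and 293 and 279.6 CPM in EV and rose by 0.75 ± 0.051 (adjusted p = 6.98e-15). BIRC2 rose by 0.90 and XIAP, a direct caspase inhibitor, fell by 0.35 on the log2 scale. Over the 10 anti-apoptotic genes 4 rose and 2 fell. Among 21 death receptors and caspases 10 rose and 2 fell, with a median of 0.177: FAS rose by 1.28, TNFRSF10B, a receptor for TRAIL, by 0.69, and CASP4 by 0.78. Of 15 p53 target genes 5 rose and 6 fell. None of these lists was tested against the 20.4% of all genes that rose and the 20.4% that fell.

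The study's title names AKT and EphA2. EPHA2, a receptor tyrosine kinase for ephrin-A ligands (ENSG00000142627, chromosome 1, 16124337 to 16156087, minus strand), had 325 and 339.5 CPM in the non-apoptotic Tpm2.1 libraries, against 202 and 213 CPM in EV. The non-apoptotic Tpm2.1 libraries were above both EV libraries by 0.68 ± 0.053 on the log2 scale (adjusted p = 3.83e-13). In attached cells EPHA2 was higher in both lines, at 753 and 758 CPM in Tpm2.1 cells and 698 and 697 CPM in EV cells, with a difference of 0.12 that did not pass (adjusted p = 0.105). The interaction passed at 0.57 ± 0.073 (adjusted p = 2.12e-07). Of 16 tested Eph receptors and ephrins, EPHA2 included, 5 rose and 3 fell with a median of -0.076. With the GC correction 7 rose and 1 fell with a median of 0.11, and 1 fell without EV replicate 1 or without non-apoptotic replicate 2. EPHA3 had 44 and 43 counts in the non-apoptotic Tpm2.1 libraries and 1 and 0 counts in EV, a ratio of 57.4 with a counting interval of 10 to 2.29e+03. EPHA7 stood at 0.885 and 2.47 CPM in non-apoptotic Tpm2.1 cells and 0.186 and 0.264 CPM in EV and rose by 2.897, with 3.25 in attached cells. EPHB4 fell by 0.29 on the log2 scale.

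Of the AKT genes, AKT2 was lower and AKT1 depended on a correction. AKT2 (ENSG00000105221, chromosome 19, 40230317 to 40285536, minus strand) had 83.3 and 85.8 CPM in the non-apoptotic Tpm2.1 libraries, against 122 and 121 CPM in EV, and fell by 0.52 ± 0.065 on the log2 scale (adjusted p = 3.05e-08). AKT1 (ENSG00000142208, chromosome 14, 104769349 to 104795751, minus strand) had 124 and 139 CPM in non-apoptotic Tpm2.1 cells and 159 and 166 CPM in EV and fell by 0.31 ± 0.067 on the log2 scale (adjusted p = 0.000272), but its value was 0.02 (adjusted p = 0.83) after a correction for the GC content of transcripts. PIK3CA, the catalytic subunit of PI3K, rose by 0.38. The receptors on this list were lower, with INSR at -0.89 and IGF1R at -0.67, and so was the adaptor IRS1 at -0.61. EGFR, a receptor on another list, rose by 0.63. Over 23 tested members 4 rose and 10 fell with a median of -0.174, against 7 higher and 2 lower in attached cells; with the GC correction the count at 5 hours was 3 and 7 with a median of -0.023, where 21.8% of all genes rose and 15.6% fell. The 4 that rose became 1 without EV replicate 2 and 2 without either non-apoptotic replicate. Of 23 FOXO target genes, which AKT keeps low, 9 rose and 5 fell, 3 without EV replicate 2. Messenger RNA says nothing of AKT phosphorylation.

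**Figure D3:**
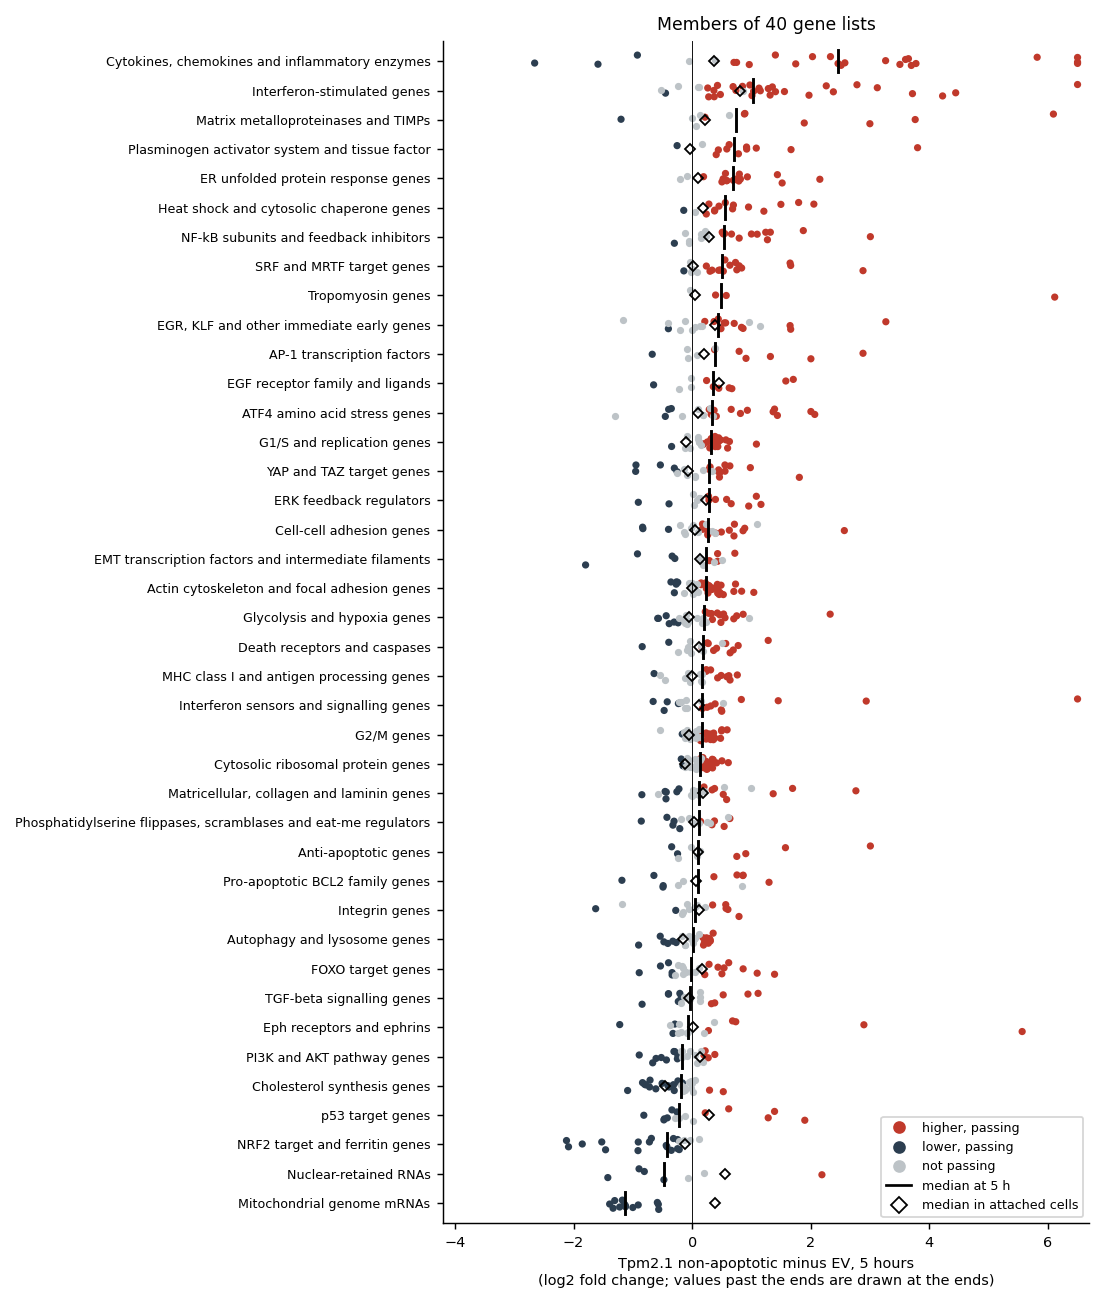
Log2 line difference at 5 hours for the tested members of 40 gene lists (dots), with the list's median at 5 hours (black bar) and in attached cells (diamond). Values past -4 or 6.5 are drawn at the ends. The cytokine list has its median at 2.46 and the interferon-stimulated list at 1.02, and the mitochondrial list lies lowest at -1.13.

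Adhesion genes showed scattered changes. Of 15 tested integrin genes 5 rose and 2 fell with a median of 0.049. ITGB1, the beta subunit shared by most matrix receptors, rose by 0.60 and ITGA6, a laminin receptor subunit, by 0.79. ITGA10, a collagen receptor subunit, had 4.43 and 5.75 CPM in the non-apoptotic Tpm2.1 libraries and 14.4 and 17.4 CPM in EV and fell by 1.63 on the log2 scale, although it was higher by 0.98 in attached cells. Cell-cell adhesion genes rose in 14 and fell in 3 of 27 tested members, with a median of 0.263. CLDN4, a tight junction claudin, had 7.04 and 8.18 CPM in the non-apoptotic Tpm2.1 cells and 1.18 and 1.39 CPM in EV and rose by 2.57. DSG2, a desmosomal cadherin, rose by 0.63, while the plaque proteins JUP and PKP3 fell by 0.84 and 0.83 on the log2 scale. The classical cadherins CDH1 and CDH2 were below the filter. ALCAM, an adhesion molecule of the immunoglobulin family, rose by 0.49 at 5 hours and had -0.22 in attached cells, an interaction of 0.71.

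Among matricellular, collagen and laminin genes 8 rose and 6 fell of 25. LAMB1, a laminin chain, had 155 and 155 CPM in the non-apoptotic Tpm2.1 libraries and 47.7 and 47.99 CPM in EV and rose by 1.69. LOXL2, a collagen cross-linking oxidase, rose by 0.53, with -0.25 in attached cells. COL1A1, a fibrillar collagen chain, fell by 0.85 on the log2 scale. The list gave 11 higher and 2 lower after the GC correction. TGF-beta signalling genes rose in 5 and fell in 6 of 19 members, and the genes of the epithelial to mesenchymal transition in 4 and 4 of 12, with KRT19, another keratin of simple epithelia, at -1.797. With the GC correction both lists had 7 higher and 3 lower. Without non-apoptotic replicate 1, 3 of the TGF-beta genes fell, and 7 of the transition genes rose without the 2 apoptotic libraries at 4 days.

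NRF2 targets and ferritin genes, which detoxify oxidants and store iron, fell in most members. Of 20 members none rose and 16 fell, with a median of -0.431, against 1 higher and 6 lower in attached cells. HMOX1, the haem-degrading oxygenase, had 90.5 and 80.4 CPM in the non-apoptotic Tpm2.1 libraries, against 360.0 and 382 CPM in EV. It fell by 2.12 ± 0.13 on the log2 scale (adjusted p = 1.39e-15). In attached cells both lines were low, at 12.1 and 9.599 CPM in Tpm2.1 cells and 9.84 and 9.88 CPM in EV cells, below all 4 suspended libraries, and the interaction passed at -2.25 ± 0.25. FTH1, the ferritin heavy chain, had 453 and 459.7 CPM in non-apoptotic Tpm2.1 cells and 814 and 904 CPM in EV and fell by 0.91 on the log2 scale. NQO1, a quinone reductase, had 342 and 357 CPM in non-apoptotic Tpm2.1 cells and 574 and 551 CPM in EV and fell by 0.69 on the log2 scale, and GCLM, a subunit of the enzyme that makes glutathione, fell by 0.72. The ferritin light chain FTL had -0.037, which did not pass.

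Of 30 cholesterol synthesis genes 2 rose and 17 fell with a median of -0.193, whereas in attached cells none rose and 25 fell with a median of -0.458, and the interaction was positive for 16 genes and negative for 2. LSS, lanosterol synthase, fell by 0.72 on the log2 scale. FASN, fatty acid synthase, had 836 and 887 CPM in the non-apoptotic Tpm2.1 libraries and 1445 and 1561 CPM in EV and fell by 0.80 on the log2 scale. Of 30 glycolysis and hypoxia genes 13 rose and 6 fell, with LDHA, lactate dehydrogenase A, at 0.75. Of 26 autophagy and lysosome genes 9 rose and 6 fell, with 4 higher without EV replicate 1 and 2 lower with the GC correction. Of 17 tested flippases, scramblases and related regulators of phosphatidylserine, the lipid that Annexin V binds, 5 rose and 5 fell, with 3 higher without EV replicate 2 and 3 in each direction without non-apoptotic replicate 1.

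Of 30 genes of the G1/S transition and DNA replication 21 rose and 1 fell with a median of 0.324, against 2 higher and 7 lower in attached cells. CCNE2, a cyclin of the G1/S transition, rose by 1.08 and TYMS, thymidylate synthase, by 0.60. G2/M genes rose in 16 and fell in 1 of 30, with TPX2, a spindle assembly factor, at 0.49. Genes of cytosolic ribosomal proteins rose in 21 and fell in 2 of 40 with a median of 0.138, against 3 and 15 in attached cells. RPL30 had 0.61.

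Transcripts of mitochondria and some that stay in the nucleus fell at 5 hours. All 13 messenger RNAs of the mitochondrial genome fell, with a median of -1.13, whereas 11 of them rose in attached cells with a median of 0.383. MT-ND1, a subunit of respiratory complex I, had 716 and 658 CPM in the non-apoptotic Tpm2.1 libraries, against 1813 and 1789 CPM in EV, and fell by 1.39 ± 0.12 on the log2 scale. MT-ND4, another complex I subunit, had 2392 and 2122 CPM in non-apoptotic Tpm2.1 cells and 4949 and 4905 CPM in EV and fell by 1.13. Of 7 tested nuclear-retained RNAs 1 rose and 4 fell. MALAT1, a long RNA of nuclear speckles, had 96.8 and 94.7 CPM in the non-apoptotic Tpm2.1 libraries and 184 and 172 CPM in EV and fell by 0.90 ± 0.093 on the log2 scale. In attached cells it was higher, with 86.7 and 78.9 CPM in the Tpm2.1 line and 35.6 and 33.5 CPM in EV. NEAT1, the scaffold of paraspeckles, fell by 0.48 on the log2 scale with 0.49 in attached cells. The apoptotic Tpm2.1 fraction at 5 hours had 3.88% and 5.34% of counts in mitochondrial messenger RNA, above both other groups. How far the removal of Annexin V-binding cells, stated for the Tpm2.1 group alone, takes part in these differences was not tested.

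The difference also varied with GC content. The genes were parted into 5 bins of equal size by the GC content of their longest transcript. In the lowest bin, from 23.1% to 40.9% GC, 1065 genes rose and 328 fell at 5 hours with a median of 0.117. In the highest bin, from 57.8% to 83.9% GC, 220 rose and 1477 fell with a median of -0.319. In attached cells the medians of these bins were 0.0083 and -0.0135. With the GC trend removed from each library, a step chosen after seeing the data, 6422 genes passed at 5 hours (37.4%) and 58.3% of them were higher, beside 50% without it. EPHA2 then had a value of 0.95 and AKT2 still fell, and the counts of the interferon, cytokine, plasminogen and unfolded protein response lists moved by at most 1 in either direction.

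**Figure D4:**
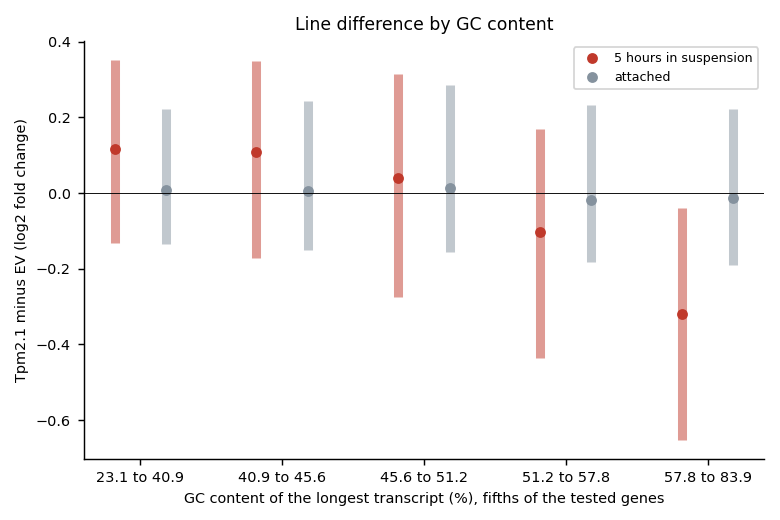
Median (point) and interquartile range (bar) of the log2 line difference in each of 5 bins of genes by GC content, at 5 hours and in attached cells. The median at 5 hours is 0.117 in the lowest bin and -0.319 in the highest, while the attached medians are 0.0083 and -0.0135.

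Single genes outside the gene lists stood at both ends. Among the 10 highest that passed the rule for naming were EPB41L3, ESM1 and TIE1, which was also counted above with the endothelial markers. TIE1, a receptor of vascular endothelium, had 96.9 and 105 CPM in the non-apoptotic Tpm2.1 libraries, against 2.36 and 2.905 CPM in EV, and rose by 5.27 ± 0.11 (adjusted p = 1.34e-30). Its attached difference was 2.55. EPB41L3, a membrane cytoskeleton linker, had 117 and 117 CPM in non-apoptotic Tpm2.1 cells and 7.57 and 6.27 CPM in EV and rose by 4.08. ESM1, a secreted proteoglycan, had 14.7 and 13.1 CPM in non-apoptotic Tpm2.1 cells and 0.683 and 0.594 CPM in EV and rose by 4.42. GPAT2, an acyltransferase gene with similar copies in the genome and therefore uncertain, had 301 and 336 counts in the non-apoptotic Tpm2.1 libraries and 0 in both EV libraries, at least 140-fold higher.

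Genes named at the low end were of mixed kinds. B4GALNT4, a glycosyltransferase, had 5.499 and 5.37 CPM in the non-apoptotic Tpm2.1 libraries, against 27.99 and 31.4 CPM in EV, and fell by 2.45 on the log2 scale. FOXQ1, a forkhead transcription factor (ENSG00000164379, chromosome 6, 1312440 to 1314748, plus strand), had 23.3 and 26.8 CPM in non-apoptotic Tpm2.1 cells and 101 and 108 CPM in EV and fell by 2.06 ± 0.086 (adjusted p = 3.92e-21). NOG, which encodes the BMP antagonist noggin, had 17.3 and 18.8 CPM in non-apoptotic Tpm2.1 cells and 74.3 and 83.2 CPM in EV and fell by 2.12. BAIAP3, a gene of vesicle traffic, had 10.5 and 10.4 CPM in non-apoptotic Tpm2.1 cells and 38.8 and 40.8 CPM in EV and fell by 1.93. These 4 had -1.09, -0.41, -0.99 and -0.44 in attached cells, in the same order. CCDC78, a coiled-coil protein, had 5.03 and 3.898 CPM in the non-apoptotic Tpm2.1 cells and 14.5 and 19.7 CPM in EV and fell by 1.94, MXRA8, a surface protein, by 1.69 and RAP1GAP, which inactivates the GTPase RAP1, by 1.67. LRP5L, a relative of the receptor LRP5 and so possibly sharing its reads, fell by 1.62 with 0.23 in attached cells. XAGE1B, a cancer-testis antigen with a near-identical copy and therefore uncertain, had 11.7 and 1.97 CPM in the non-apoptotic Tpm2.1 cells and 17.3 and 0.66 CPM in EV, and these overlap. It was named for its interaction of -2.96 (adjusted p = 0.0435), which was 0.81 (adjusted p = 0.839) without EV replicate 1 at 5 hours.

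The line difference was followed in the non-apoptotic fraction at 1, 2 and 4 days in suspension, each against EV cells of the same time and with no library in common with 5 hours. The contrasts passed for 6880 genes (40%) at 1 day, 7634 (44.4%) at 2 days and 7552 (43.9%) at 4 days. Of the 515 genes more than 2-fold higher at 5 hours, 363 (70.5%) passed as higher at 1 day, 387 (75.1%) at 2 days and 369 (71.7%) at 4 days, where 19.7%, 23.3% and 20.2% of all genes did. Of the 641 more than 2-fold lower, 334 (52.1%), 343 (53.5%) and 167 (26.1%) passed as lower at those times, beside 20.3%, 21.1% and 23.8% of all genes. The mean of the later differences minus that at 5 hours passed for 4412 genes (25.7%).

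Named genes fell into several courses. TPM2 had log2 differences of 6.12, 6.77, 7.13 and 8.19 at 5 hours and 1, 2 and 4 days, and MMP1 stayed near 6.09, 6.39, 6.49 and 6.32. IL1B had 3.77, 4.800, 5.17 and 5.15, larger at the 3 later times. HERPUD1 had 2.15, 1.48, 0.72 and 0.36, and DNAJB1 1.796, 1.13, 0.40 and -0.19. The later mean minus 5 hours was -1.301 and -1.35 for these genes, and both passed. Other chaperone and stress genes had other courses, with 1.52, 1.63, 1.49 and 0.83 for HSPA5, 0.81, 0.91, 1.02 and 0.79 for the disulphide isomerase PDIA4 and 1.44, 1.62, 1.23 and -0.21 for DDIT3. HMOX1 had -2.12 at 5 hours and then 0.86, 0.33 and 0.16, a change of 2.57 (adjusted p = 1.66e-13). EPHA2 had 0.68, 0.30, -0.23 and -0.14, and its change of -0.70 passed (adjusted p = 1.18e-11). AKT2 kept negative values of -0.52, -0.41, -0.56 and -0.27, and BMF of -1.18, -1.37, -0.43 and -1.36.

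**Figure D5:**
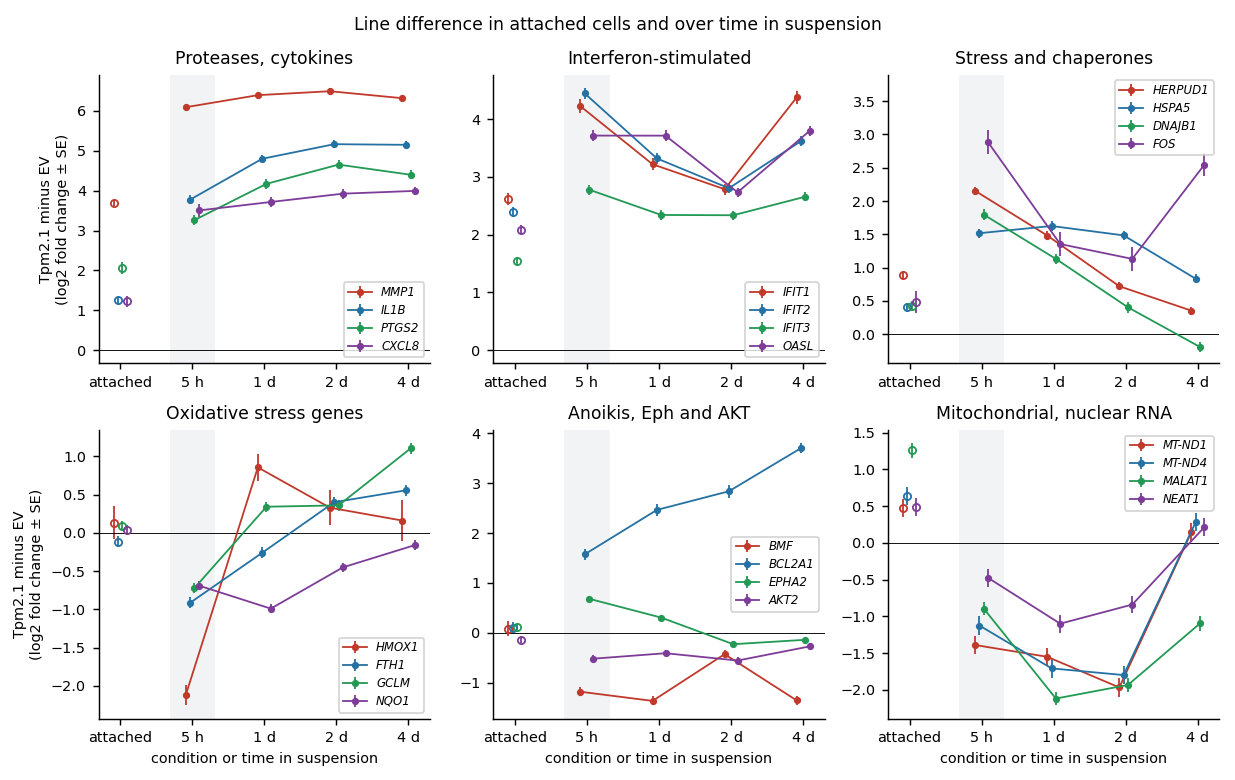
Log2 line difference with its standard error for 24 genes in 6 panels, in attached cells and at 5 hours, 1, 2 and 4 days in suspension (non-apoptotic Tpm2.1 over EV). MMP1 runs from 3.699 in attached cells to 6.32 at 4 days, while HMOX1 is at 0.13 attached, -2.12 at 5 hours and 0.86 at 1 day.

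The apoptotic Tpm2.1 fraction at 5 hours gives a view of the separation. Its contrasts share the EV or the non-apoptotic libraries with the one above, so the values are set side by side. The labels do not say whether both fractions came from the same cultures, and the test did not pair them. Apoptotic Tpm2.1 cells differed from EV in 4833 genes (28.1%), and from non-apoptotic Tpm2.1 cells in 3683 (21.4%), of which 269 were more than 2-fold higher (1.56%) and 10 more than 2-fold lower (0.0582%). TPM2 had 2689 and 2461 CPM in the apoptotic fraction, a difference of 0.010 from the non-apoptotic fraction and of 6.12 from EV. MMP1 differed from EV by 5.89 in apoptotic cells and 6.09 in non-apoptotic cells, IFIT1 by 4.04 and 4.22, and HSPA5 by 1.31 and 1.52. HMOX1 was -2.25 and -2.12, BMF -1.15 and -1.18, and EPHA2 0.76 and 0.68. For these genes the 2 fractions stood on the same side of EV. The mitochondrial and nuclear RNAs did not follow this: MT-ND1 had 2287 and 3076 CPM in the apoptotic fraction and was higher than EV by 0.57, beside -1.39 in the non-apoptotic one, and MALAT1 had -0.17, which did not pass, beside -0.90. Of the 641 genes more than 2-fold lower in non-apoptotic cells, the apoptotic mean lay between the non-apoptotic and EV means for 521, beyond the non-apoptotic mean for 51 and on the other side of EV for 69. For the 515 more than 2-fold higher these counts were 307, 207 and 1. All these genes were chosen by their difference between the non-apoptotic and EV libraries. That choice by itself favours an apoptotic mean in between, so the counts are a description only.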

How the data were processed

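RNA of 28 MDA-MB-231 libraries, 14 groups of 2, had been sequenced after selection with poly-T beads, per the labels' protocols. The authors deposited whole-number counts per gene, used for every test, and FPKM values, the same counts scaled by gene length and library, used only for levels of tropomyosin genes. The build was hg38, per the submitters' processing notes; the aligner, the counter and any use of strand were not given in the sources used here, so a gene and its antisense partner may share reads. Of 58735 genes, 23006 had no count. Counts were fitted with edgeR 4.0.16 (R 4.3.3) by its quasi-likelihood F test, with TMM scaling, filterByExpr and 1 mean per group over all 28 libraries. This tested 17191 genes with 14 residual degrees of freedom. An SE is the absolute log2 difference over the root of F. P-values were adjusted by Benjamini-Hochberg within a contrast, with a threshold of 0.05. CPM values use TMM-scaled totals, which ran from 13043529 to 27416335 before scaling and limit genes of low count. Intervals of count ratios and floors of 3 counts cover counting error only.

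The members are the 4 libraries that the labels give. They, the gene lists and the tests were chosen with earlier results of these data known. Genes named were TPM2, EPHA2, AKT1, AKT2 and BMF, the protein-coding genes that passed with at least 10 CPM in a group and separate groups (the 10 highest and the 10 lowest), the 5 highest and 5 lowest by interaction, and up to 4 members per list with the smallest p, of which the text gives some. Other list members illustrate a list and were chosen after their values were seen. Some list members are not reported here. No set test was made. Promoters came from RefSeq (GRCh38.p14). Alternatives were DESeq2 1.42.0, its size factors, upper-quartile scaling, no filter, protein-coding genes alone, fewer libraries, a replicate block, a GC correction and thinning to equal totals; the last 2 were added after seeing the data. The fit was checked on simulated data.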

Additional observations from a re-analysis of the deposited data

Results flagged for a closer look

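For 28 genes named above the line difference at 5 hours departed from that in attached cells by more than 1.5 on the log2 scale, or had the opposite sign with both differences passing. The values here are the difference at 5 hours minus that in attached cells, tested as an interaction with edgeR. A passing interaction was part of the rule that chose these 28 genes. Over all tested genes 571 passed in both states with opposite signs. RSAD2, CH25H and GPAT2, named above, also passed, but with at most 1 count in the EV libraries at 5 hours their fitted values depend on the prior count and are left out. No cause was tested.

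Among genes higher in the non-apoptotic Tpm2.1 cells, the secreted and surface proteins ESM1, TIE1 and MMP1 had 3.52, 2.71 and 2.39, and MMP3 had 1.95. The inflammatory genes IL1B and CXCL8 had 2.53 and 2.28, ICAM1 had 1.63 and SERPINB2 had 2.32. FOS had 2.4. The interferon-stimulated genes IFIT2, OASL and IFIT1 had 2.05, 1.63 and 1.6. The glutathione-degrading enzyme CHAC1 had 1.64 and the membrane linker EPB41L3 had 1.59.

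Opposite signs in suspension and in attached cells were found for LOXL2 at 0.771 and ALCAM at 0.712, both higher at 5 hours and lower attached. The reverse held for MAVS at -0.75, NEAT1 at -0.97, MALAT1 at -2.16, MT-ND4 at -1.77, MT-ND1 at -1.86 and the collagen receptor subunit ITGA10 at -2.61, which were lower at 5 hours and higher attached. HMOX1 had -2.25 and FOXQ1 had -1.64, both lower at 5 hours, as were LRP5L at -1.85, MXRA8 at -1.75 and CCDC78 at -1.71. XAGE1B had -2.96, a value that turned its sign without 1 of its EV libraries.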

How the results depend on the processing

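For 100 named genes, 1393 of 1398 values at 5 hours over 14 other settings kept their direction and side of the threshold, as did 948 of 970 interaction values over 18. Of 1120 list counts 1026 stayed within 1.5 times; the 23 counts under 3 genes ranged from 0 to 4, and 13 of the 57 counts of 3 or more moved, as given beside them, or where non-coding RNAs were not tested. The sign turned for TPM1 without a filter on low counts (0.016, adjusted p = 1) and for AKT1 with the GC correction, at 5 hours (0.021, adjusted p = 0.83) and in the interaction (0.067, adjusted p = 0.612). XAGE1B turned at 5 hours without EV replicate 1 (3.31, adjusted p = 0.105) or non-apoptotic replicate 2 (0.37, adjusted p = 0.781), and in the interaction without EV replicate 1 (0.81, adjusted p = 0.839); leaving out 1 library gave it -2.201 to 3.305 at 5 hours and -4.695 to 0.81 in the interaction, which missed the threshold in 7 other settings. The RAP1GAP interaction missed it in 5. The AKT1 interaction also missed the threshold without the filter and in 5 fits that left out a library, and the GC correction ended the interactions of AKT2 and FASN. Genes more than 2-fold lower numbered 382 with protein-coding genes alone, where non-coding genes were not tested. The attached contrast called 5440 genes with its own libraries alone. Leaving out 1 library gave 5269 to 5671 genes at 5 hours, 2028 to 2188 attached, the lowest without EV attached replicate 2 and the highest without Tpm2.1 attached replicate 2, and 1687 to 2773 for apoptotic against non-apoptotic cells, the lowest without non-apoptotic replicate 1. Such fits have fewer libraries and assume that the lone library varies like the other groups. DESeq2 called 6666 genes and thinning 6654. Same-numbered libraries at 5 hours did not vary together, with r = -0.00237 for non-apoptotic Tpm2.1 and EV and 0.00971 for the apoptotic and non-apoptotic fractions. With the replicate block 7019 genes passed at 5 hours, and 3695 for apoptotic against non-apoptotic cells. Depths of 14199713 to 25481208 counts at 5 hours limit genes near the filter.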

Other observations

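Transcript classes differed at 5 hours. The 1129 tested antisense genes had a median log2 difference of -0.254 at 5 hours, against a median of 0.205 in attached cells. Of them 39 were higher and 137 lower in non-apoptotic Tpm2.1 cells at 5 hours. Both counts are smaller shares than the 20.4% higher and 20.4% lower over all tested genes. The 877 long intergenic non-coding RNAs had a median of -0.167 at 5 hours and 0.133 attached, and the 176 sense intronic genes -0.433 and 0.167. The 13343 protein-coding genes had 0.00847 and -0.0204. Mitochondrial messenger RNA and MALAT1 moved the same way as these classes, as the share of counts in mitochondrial messenger RNA was 1.62% and 1.44% in non-apoptotic Tpm2.1 libraries against 3.18% and 3.10% in EV libraries. Whether the Annexin V step, stated for the Tpm2.1 cells alone, takes part in this was not tested.

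By chromosome, the lowest medians at 5 hours were -0.201 on chromosome 16, -0.187 on chromosome 19, -0.154 on chromosome 17 and -0.141 on chromosome 22. In attached cells these 4 chromosomes had medians of -0.00691, -0.0227, -0.00682 and -0.00413. Medians of this size go with the values by GC content given above, whose part in them was not tested.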
